A study of Homo sapiens with 8 samples.

Results

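The 9 genes described here encode proteins of the tight junction in BEAS-2B, a human airway line made immortal from normal bronchial epithelium. They were taken by gene symbol from the 25411 genes listed for each RNA-Seq library: the claudins CLDN1, CLDN3, CLDN4, CLDN7, CLDN11 and CLDN12, occludin (OCLN), the scaffold protein ZO-1 (TJP1) and the adhesion molecule JAM-A (F11R). The 8 libraries fell into 4 groups of 2 biological replicates. UT cells were untreated. Ni-E cells were exposed to 100 µM NiCl2 (nickel chloride, which dissolves in the medium) for 6 weeks. Ni-W cells had the same 6 weeks of exposure, after which colonies from single cells were grown on without nickel, and 1 randomly selected population kept for more than 6 months was used. HCl3 cells carry the treatment text of Ni-W cells, without a time since exposure or a stated relation to Ni-W. Since the washed-out groups were grown from single cells, the effect of past exposure and the make-up of the clone cannot be told apart in any comparison with them. The labels also give an experiment number of 2 to both Ni-E libraries and of 3 and 4 to the HCl3 libraries, and none to UT and Ni-W, so experiment and group cannot be told apart either.

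Tight junctions seal the space between neighbouring epithelial cells near their apical side. Claudins are membrane proteins that span the membrane several times and polymerise into strands, and which claudins a cell makes decides whether the strand is a tight seal or lets particular ions through. Occludin and JAM-A are further membrane proteins of the junction, and ZO-1 binds the tails of claudins, occludin and JAM-A inside the cell and ties them to actin. In airway epithelium these proteins form the barrier against inhaled particles and metals. RNA levels were measured here, and neither protein nor barrier function was.

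Total counts ranged from 26383920 to 45692298 reads per library, and a level of 3 reads, used as the floor, was at most 1.14e-05% of a library's reads. The label of an epithelial line was checked on markers. KRT8 and KRT18, keratins of simple epithelia, were abundant (144 to 310 RPKM over both genes and 8 libraries), while CDH1, which encodes E-cadherin, stood at 0.01 to 0.11 RPKM and EPCAM at 0.95 to 1.79 RPKM. KRT8 read 192 to 220 RPKM in UT, 220 to 243 RPKM in Ni-E and 256 to 310 RPKM in Ni-W and HCl3. KRT18 read 144 to 148, 151 to 191 and 208 to 245 RPKM in the same order. KRT19 was at 0 to 0.02 RPKM in UT and Ni-E and at 0.53 to 0.78 RPKM in Ni-W and HCl3. The mesenchymal markers VIM and CDH2 were abundant in all 8 libraries (at least 816 and 54.1 RPKM). VIM read 1417 and 1518 RPKM in UT and was lower in Ni-E (992 and 827 RPKM) and Ni-W (816 and 992 RPKM). In HCl3 it read 1515 and 1527 RPKM. FN1, fibronectin, was at 4.13 to 6.99 RPKM in UT and Ni-E and at 82.1 to 121 RPKM in Ni-W and HCl3. Summed over each list, the 5 epithelial markers ranged from 338 to 558 RPKM and the 3 mesenchymal markers from 891 to 1715 RPKM. The 3 endothelial markers summed to at most 0.18 RPKM, with PECAM1 and CDH5 at or near 0, and the leukocyte marker PTPRC was at most 0.04 RPKM, while CD68, also a lysosomal gene of other cells, was at 14.3 to 21.8 RPKM. The part of the FN1 and other marker shifts in the results below was not tested.

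To show the regulatory sequence of the members that changed by at least 1.5-fold against UT, the stretch from 250 bases before to 50 bases after the transcription start is printed for CLDN1, OCLN and CLDN3 (RefSeq, GRCh38.p14). The windows are chr3:190322397-190322696 (minus strand) for CLDN1, chr5:69492297-69492596 (plus strand, the first of 2 OCLN windows) and chr7:73770221-73770520 (minus strand) for CLDN3, each 5′ to 3′ along the gene. Capitals mark the E-box CAGGTG, or CACCTG when read on the other strand, which is the sequence bound by repressors of the SNAIL and ZEB families. The motif reads differently on its own reverse strand and overlaps no other motif searched.
CLDN1: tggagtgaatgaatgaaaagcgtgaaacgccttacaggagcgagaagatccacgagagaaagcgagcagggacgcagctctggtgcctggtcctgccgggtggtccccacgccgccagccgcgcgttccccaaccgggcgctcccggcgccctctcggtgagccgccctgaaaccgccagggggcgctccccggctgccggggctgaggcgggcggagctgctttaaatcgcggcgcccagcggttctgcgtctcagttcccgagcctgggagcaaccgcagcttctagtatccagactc
OCLN: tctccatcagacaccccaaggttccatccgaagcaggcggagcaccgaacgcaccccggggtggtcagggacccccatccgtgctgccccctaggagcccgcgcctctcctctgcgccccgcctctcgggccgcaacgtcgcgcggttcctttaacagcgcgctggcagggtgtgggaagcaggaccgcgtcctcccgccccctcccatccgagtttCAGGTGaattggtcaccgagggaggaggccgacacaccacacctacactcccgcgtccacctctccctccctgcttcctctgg
CLDN3: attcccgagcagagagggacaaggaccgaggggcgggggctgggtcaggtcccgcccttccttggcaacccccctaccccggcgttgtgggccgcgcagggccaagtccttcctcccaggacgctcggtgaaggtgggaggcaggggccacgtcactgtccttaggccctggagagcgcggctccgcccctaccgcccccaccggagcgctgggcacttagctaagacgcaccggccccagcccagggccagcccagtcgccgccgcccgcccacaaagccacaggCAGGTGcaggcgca

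RefSeq windows were found for 8 of the 9 members (14 windows in all). The E-box was present in 5 of the 14 windows, belonging to 4 members, against 20.6% of 35116 promoter windows of the same length. No match lay in the CLDN1 window, which says only that these letters are not in it. OCLN had 1 match at position -33 in the window shown, counted from the transcription start, and 2 in its other window, and CLDN3 had 1 at position 37. Of the CLDN7 windows, 1 held 5 matches, a number reached in 0.094% of all windows. TJP1 had 1 match in 1 of 4 windows. A match is a run of letters and was not tested as a binding site.

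The levels of the members are given as the deposited RPKM, nominally counts divided by transcript length and library depth so that genes can be compared per length. They spanned a wide range. CLDN11, best known from myelin and the testis, was the highest in each of the 8 libraries at 105 to 125 RPKM, and CLDN1, the barrier claudin of skin and airway, followed at 35.4 to 89.8 RPKM. These claudins with CLDN12 made up 96.4 to 98.5% of the summed RPKM of the 23 claudin genes listed. F11R, TJP1 and CLDN12 lay between 12.3 and 22.6 RPKM, and in UT their order was not set, as F11R read 16.7 and 15.9, CLDN12 15.0 and 16.2 and TJP1 13.4 and 15.3 RPKM. OCLN read 1.5 to 2.43 RPKM and CLDN3 0.75 to 2.31 RPKM, and CLDN7 (0.48 to 0.96 RPKM) and CLDN4 (0.06 to 0.21 RPKM) were lowest. CLDN4 rested on 4 to 16 reads per library and CLDN7 on 24 to 88, so only large changes could have been detected in them. Reads and RPKM of CLDN7 did not keep 1 ratio across libraries beyond the change in depth. UT replicate 1 had 61 reads of 37469371 and 0.96 RPKM. Ni-W replicate 1 had a larger share of its reads on CLDN7, 88 of 45692298, but a lower RPKM of 0.85.

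**Figure D1:**
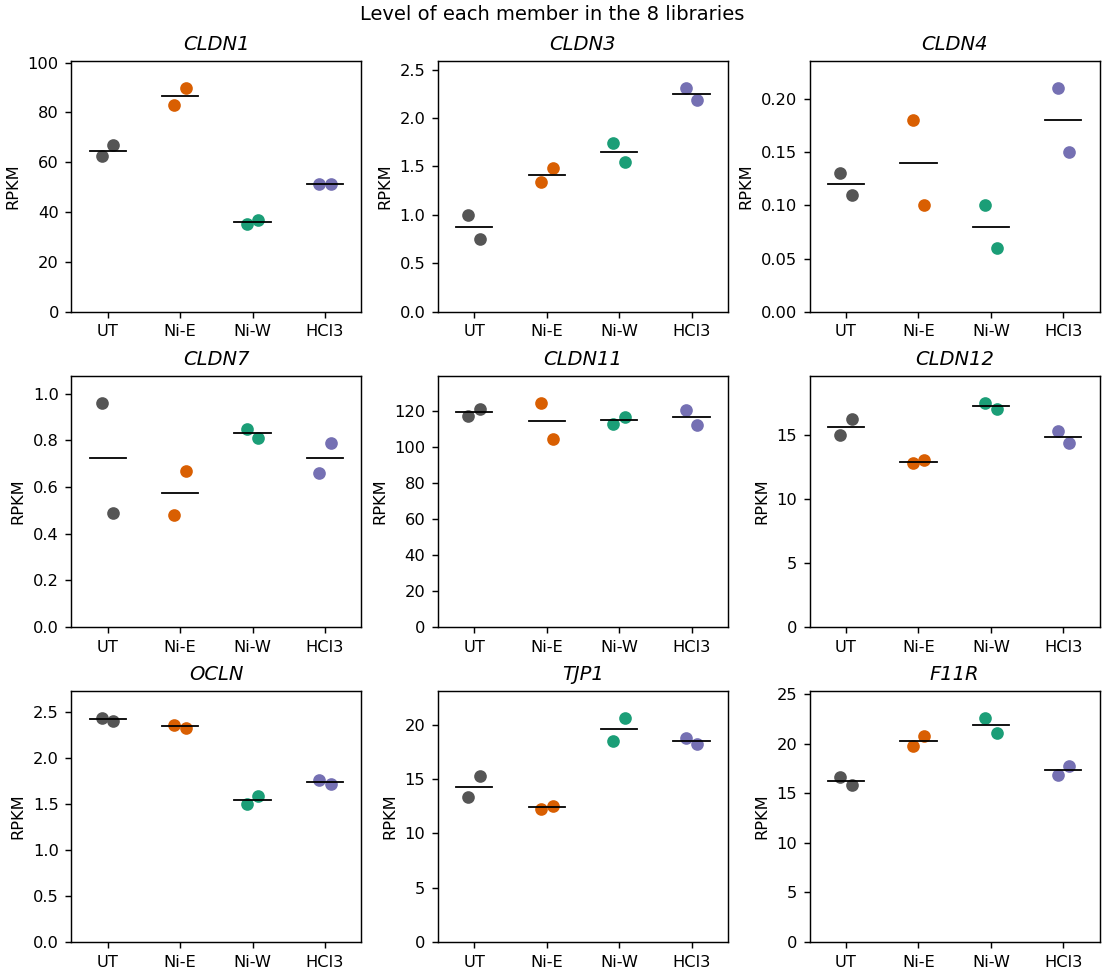
RPKM (y axis, linear from 0, scaled per gene) of each of the 9 members in the 2 libraries of UT, Ni-E, Ni-W and HCl3 (points), with the group mean as a bar. CLDN1 stands at 83.0 and 89.8 RPKM in Ni-E and at 35.4 and 36.8 RPKM in Ni-W, while CLDN11 keeps to 105 to 125 RPKM.

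The first comparison asked how the genes stood during exposure, Ni-E against UT. The counts were tested with DESeq2 (Benjamini-Hochberg adjustment over all genes tested), and a gene passed at an adjusted P value under 0.05 and was called when the change was also at least 1.5-fold. Of the 9 members 1 passed, in the higher direction, and 0 were called, while 6.24% of all 14140 tested genes passed as higher, 5.7% passed as lower and 5.94% were called. At an unadjusted P value under 0.05 the members that differed numbered 4 in DESeq2, of which 0 were past 1.5-fold, and edgeR and limma also called 0. CLDN1 read 62.5 and 66.8 RPKM in UT and 83.0 and 89.8 RPKM in Ni-E. Both Ni-E libraries were above both UT libraries, and CLDN1 rose 1.29-fold (log2 0.36 ± 0.11 SE, n = 2 and 2, DESeq2 adjusted P = 0.00969). The pass was kept without UT replicate 2 and lost without UT replicate 1 (DESeq2 adjusted P = 0.131), without Ni-E replicate 1 (0.183), without Ni-E replicate 2 (0.313) and with the replicate block (0.102). In bulk RNA a change in the level per cell and a change in the share of cells that make it cannot be told apart, here and below.

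The other members did not pass during exposure. CLDN12, a claudin that lacks the usual binding tail for ZO-1, read 15.0 and 16.2 RPKM in UT and 12.8 and 13.0 RPKM in Ni-E (log2 -0.33, 95% interval -0.57 to -0.09, DESeq2 adjusted P = 0.0601). For TJP1 the difference was log2 -0.26 (interval -0.49 to -0.03) and for F11R log2 0.26 (interval 0.04 to 0.48), and neither passed. OCLN was 2.43 and 2.4 RPKM in UT and 2.36 and 2.32 RPKM in Ni-E (log2 -0.10, interval -0.43 to 0.24). The absence of a pass does not show equal levels. Over the 9 members the median log2 fold change was -0.096, against -0.002 over all genes tested.

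The second comparison asked how the genes stood long after exposure, Ni-W against UT. Here 4 of 9 members passed, 2 higher and 2 lower, and 2 were called. The share of all 15477 tested genes was 17.9% higher, 14.0% lower and 16.1% called. The members' median log2 fold change was 0.111, against 0.006 over all tested genes. In HCl3 against UT, which uses the same UT libraries, 4 members passed, 2 higher and 2 lower, and 1 was called, while of 15421 genes 17.6% passed as higher, 14.7% as lower and 15.2% were called. The median over members was 0.037, against 0.007 over all genes.

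CLDN1 was lower after washout. It read 35.4 and 36.8 RPKM in Ni-W and 51.2 and 51.2 RPKM in HCl3, against 62.5 and 66.8 RPKM in UT. Each library of either washed-out group was below both UT libraries, and the HCl3 libraries lay between those of Ni-W and UT. CLDN1 fell to 0.54 of UT in Ni-W (log2 -0.88 ± 0.10 SE, DESeq2 adjusted P = 5.4e-16) and to 0.76 of UT in HCl3 (log2 -0.39 ± 0.09 SE, DESeq2 adjusted P = 0.000151), the latter under 1.5-fold. The pass in HCl3 was lost without HCl3 replicate 1 (DESeq2 adjusted P = 0.0861) or without replicate 2 (0.0833). In Ni-W CLDN1 was called at 1.5-fold in each of the 15 alternative fits run, and it was not past a 2-fold threshold. The 30 expressed genes within 5 Mb of CLDN1 on chromosome 3 had a median log2 change of -0.08 in Ni-W and -0.17 in HCl3, where the chromosome's 684 expressed genes had a median of -0.23.

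OCLN, the first membrane protein of the tight junction to be identified, was also lower. It read 1.5 and 1.58 RPKM in Ni-W and 1.76 and 1.71 RPKM in HCl3, against 2.43 and 2.4 RPKM in UT. No washed-out library reached the lower UT library. OCLN fell to 0.62 of UT in Ni-W (log2 -0.69 ± 0.17 SE, DESeq2 adjusted P = 0.000463) and to 0.69 in HCl3 (log2 -0.53 ± 0.16 SE, adjusted P = 0.00441), where the change was under 1.5-fold. Without Ni-W replicate 1 the adjusted P in Ni-W was 0.114, and in HCl3 it was 0.187 without HCl3 replicate 1, 0.239 without replicate 2, 0.0603 without UT replicate 1 and 0.0909 with the replicate block. OCLN has a pseudogene copy, OCLNP1, and the authors removed reads with several alignments, so reads shared by both would be missing. The 39 expressed neighbours of OCLN had a median log2 change of -0.21 in Ni-W and -0.19 in HCl3.

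CLDN3, a claudin of tight epithelia, was the member called in HCl3. It read 1.00 and 0.75 RPKM in UT, 1.34 and 1.48 RPKM in Ni-E, 1.74 and 1.55 RPKM in Ni-W and 2.31 and 2.19 RPKM in HCl3, from 28 to 121 reads per library. Every exposed or washed-out library was above both UT libraries. The rise in HCl3 was 2.46-fold (log2 1.3 ± 0.38 SE, DESeq2 adjusted P = 0.00324), whereas in Ni-W the difference was log2 0.87 (interval 0.04 to 1.70, adjusted P = 0.104). In Ni-W it passed in 4 of 15 alternative fits and was called in 3, among them edgeR (adjusted P = 0.0269) and DESeq2 with all 8 libraries (0.035). The HCl3 call was lost without UT replicate 2 (DESeq2 adjusted P = 0.0711), HCl3 replicate 1 (0.23) or HCl3 replicate 2 (0.206), with the replicate block (0.0661), and after removal of GC and length trends (log2 0.82, adjusted P = 0.0526). That correction gave a median log2 change of -0.184 over all genes. A recentred form, with a median of 0.018, kept the call (log2 1.02, DESeq2 adjusted P = 0.0171). With the replicate block added to the recentred form it was lost (DESeq2 adjusted P = 0.157). The GC content of the CLDN3 transcript was 69.2%, at the 99.4 percentile of expressed genes. CLDN4 lies 60.6 kb away from it with 0 genes between, and read 0.13 and 0.11 RPKM in UT and 0.21 and 0.15 RPKM in HCl3 (log2 0.54, interval -1.32 to 2.4).

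TJP1, which encodes ZO-1, read 13.4 and 15.3 RPKM in UT, 18.5 and 20.6 RPKM in Ni-W and 18.8 and 18.2 RPKM in HCl3. Each washed-out library was above both UT libraries. TJP1 rose 1.34-fold in Ni-W (log2 0.42 ± 0.12 SE, DESeq2 adjusted P = 0.0019) and 1.25-fold in HCl3 (log2 0.32 ± 0.10 SE, adjusted P = 0.00831). Its neighbours moved by about as much: the 26 expressed genes within 5 Mb of it on chromosome 15 had a median log2 change of 0.48 in Ni-W, and 25 such genes one of 0.35 in HCl3, and the whole chromosome had 0.44 and 0.32. Less its neighbours, TJP1 stood at log2 -0.06 in Ni-W and -0.03 in HCl3. The passes were lost on removal of GC and length trends (log2 0.06 and 0.07, DESeq2 adjusted P = 0.602 and 0.493), a correction that also moved the median of all genes to -0.183 and -0.184. They were kept in a form of that correction that did not move the median (log2 0.26 and 0.27, adjusted P = 0.0044 and 0.000355). The Ni-W pass was also lost without UT replicate 1 (DESeq2 adjusted P = 0.0752) or Ni-W replicate 2 (0.197), and the HCl3 pass without HCl3 replicate 1 (0.276) or replicate 2 (0.211) and with the replicate block (0.0845).

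F11R, which encodes JAM-A, read 16.7 and 15.9 RPKM in UT, 22.6 and 21.1 RPKM in Ni-W and 16.9 and 17.8 RPKM in HCl3. Both Ni-W libraries were the highest of the 6, and those of HCl3 overlapped the range of UT after normalisation. F11R rose 1.31-fold in Ni-W (log2 0.39 ± 0.11 SE, DESeq2 adjusted P = 0.00169), and in HCl3 the difference was log2 0.04 (interval -0.16 to 0.24). The 68 expressed neighbours on chromosome 1 had a median log2 change of 0.28 in Ni-W. The Ni-W pass was lost without Ni-W replicate 1 (DESeq2 adjusted P = 0.173) or replicate 2 (0.0606) and after the GC and length correction (log2 0.06, adjusted P = 0.643), and kept in its recentred form (log2 0.26, adjusted P = 0.0142). In Ni-E F11R read 19.8 and 20.8 RPKM. Ni-W against Ni-E gave log2 0.11 for it (interval -0.08 to 0.30, DESeq2 adjusted P = 0.38), so a difference between these groups was not shown.

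**Figure D2:**
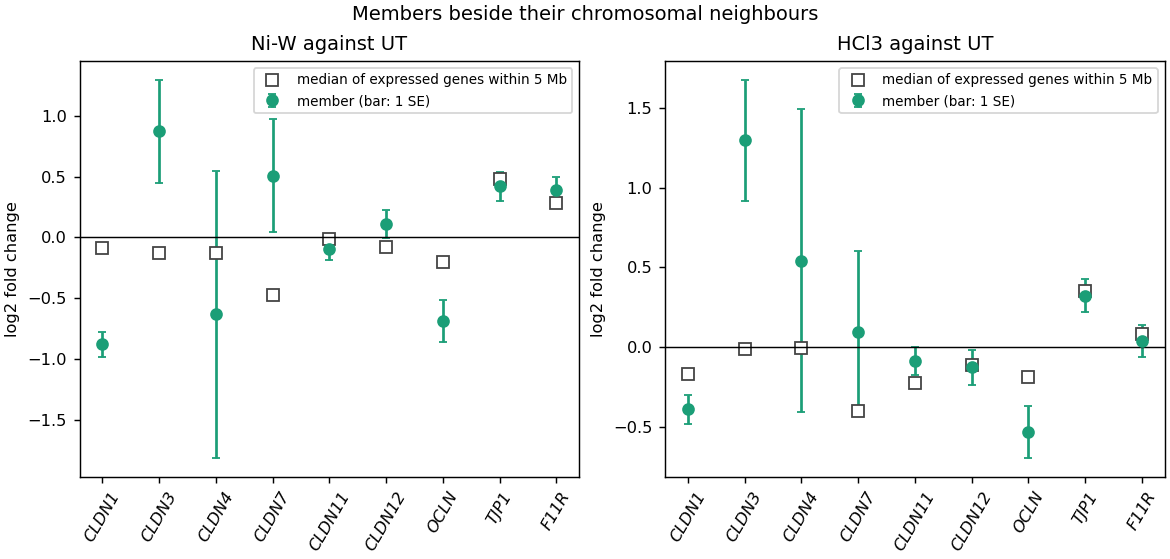
log2 fold change (y axis) of the 9 members (x axis, filled circles with 1 SE) and of the median of expressed genes within 5 Mb of each (open squares), for Ni-W against UT (left) and HCl3 against UT (right). TJP1 lies on its neighbours (0.42 beside 0.48 in Ni-W), and CLDN1 and OCLN lie below theirs (CLDN1 -0.88 beside -0.08 in Ni-W).

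CLDN11 and CLDN12 passed in neither washed-out group. CLDN11 read 118 and 122 RPKM in UT, 113 and 117 RPKM in Ni-W and 121 and 113 RPKM in HCl3, with log2 differences of -0.09 (interval -0.28 to 0.10) and -0.09 (interval -0.26 to 0.09). Its ratio to CLDN1 moved with CLDN1. The RPKM of CLDN11 over that of CLDN1 was 1.17 to 1.5 in Ni-E, 1.82 to 1.88 in UT, 2.20 to 2.36 in HCl3 and 3.18 to 3.19 in Ni-W, so that no 2 groups overlapped. CLDN12 read 17.5 and 17.1 RPKM in Ni-W (log2 0.11, interval -0.11 to 0.34) and 15.3 and 14.4 RPKM in HCl3 (log2 -0.13, interval -0.34 to 0.09). CLDN7 gave log2 0.51 in Ni-W (interval -0.40 to 1.41) and 0.10 in HCl3 (interval -0.89 to 1.09). The gene span of CLDN7 shares 38 bases with ELP5 on the opposite strand, and that of CLDN11 shares 60 bases with MIR6828, and whether strand was used in counting was not stated.

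The groups were also compared with each other. In Ni-W against Ni-E, 4 members passed (2 higher, 2 lower) and 3 were called, beside 20.3% higher, 19.9% lower and 21.0% called of 15638 genes. CLDN1 was 0.42 of its level in Ni-E (log2 -1.26 ± 0.09 SE, DESeq2 adjusted P = 6.5e-42). OCLN was 0.66 of it (log2 -0.61 ± 0.17 SE, adjusted P = 0.00159) and TJP1 was 1.58-fold higher (log2 0.66 ± 0.10 SE, adjusted P = 7e-10). The 26 neighbours of TJP1 had a median log2 change of 0.74, so that TJP1 less its neighbours was -0.08. The TJP1 change was under 1.5-fold with GC and length trends removed (log2 0.23, DESeq2 adjusted P = 0.037, or 0.164 with the replicate block added), in the recentred form (log2 0.36, adjusted P = 0.000204) and, narrowly, without Ni-W replicate 2. CLDN12 rose by 0.43 on the log2 scale (DESeq2 adjusted P = 0.000302), under 1.5-fold, and did not pass without Ni-W replicate 1 (0.0605) or with GC and length trends removed (log2 0.23, adjusted P = 0.0594, or 0.219 with the block added), while it did in the recentred form (log2 0.37, 0.00131). The OCLN pass was lost without Ni-E replicate 1 (adjusted P = 0.066), Ni-W replicate 1 (0.125) or Ni-W replicate 2 (0.0634).

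HCl3 against Ni-E gave 4 members that passed (1 higher, 3 lower) and 1 called, CLDN1, beside 18.9% higher, 19.7% lower and 17.6% called of 15603 genes. CLDN1 fell by 0.77 on the log2 scale (SE 0.08, DESeq2 adjusted P = 3.6e-22). OCLN fell by 0.45 and F11R by 0.24 on the log2 scale (adjusted P = 0.0153 and 0.0196), and TJP1 rose by 0.57 (adjusted P = 1.6e-10). The 24 expressed neighbours of TJP1 had a median log2 change of 0.49, so that TJP1 less its neighbours was 0.08. With GC and length trends removed TJP1 stood at log2 0.21 (DESeq2 adjusted P = 0.0279, or 0.109 with the replicate block added). The recentred form gave log2 0.35 (DESeq2 adjusted P = 5.1e-05). With the replicate block OCLN and F11R had DESeq2 adjusted P values of 0.103 and 0.09. OCLN did not pass without any 1 of the 4 libraries (adjusted P = 0.0598 to 0.276), and F11R did not without Ni-E replicate 2 (0.0512), HCl3 replicate 1 (0.424) or HCl3 replicate 2 (0.195).

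The washed-out groups were then set against each other, HCl3 against Ni-W. Of the 9 members 2 passed, 1 higher and 1 lower, and 0 were called, beside 8.71% higher, 8.38% lower and 4.9% called of 14605 genes. At an unadjusted P value under 0.05 there were 3 in DESeq2, 0 of them past 1.5-fold, and edgeR and limma called 0. CLDN1 was 1.4-fold higher in HCl3 than in Ni-W (log2 0.49 ± 0.07 SE, DESeq2 adjusted P = 3.5e-09), and it passed in each of 16 alternative analyses. F11R was 0.79 of its Ni-W level in HCl3 (log2 -0.35 ± 0.08 SE, adjusted P = 0.000411), a pass lost without HCl3 replicate 1 (0.222) or replicate 2 (0.0875). OCLN differed by log2 0.16 (interval -0.16 to 0.47) and TJP1 by log2 -0.09 (interval -0.26 to 0.07). CLDN3 differed by log2 0.43 (interval -0.16 to 1.02), so a difference between the washed-out groups was not shown for it.

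Libraries of the groups compared did not overlap in normalised counts for 6 members in Ni-E against UT, 9 in Ni-W against UT, 7 in HCl3 against UT, 8 in Ni-W against Ni-E, 6 in HCl3 against Ni-E and 7 in HCl3 against Ni-W, out of 9 each time. Among all tested genes 59.1%, 69.8%, 71.2%, 74.6%, 75.1% and 62.6% did so in the same order.

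**Figure D3:**
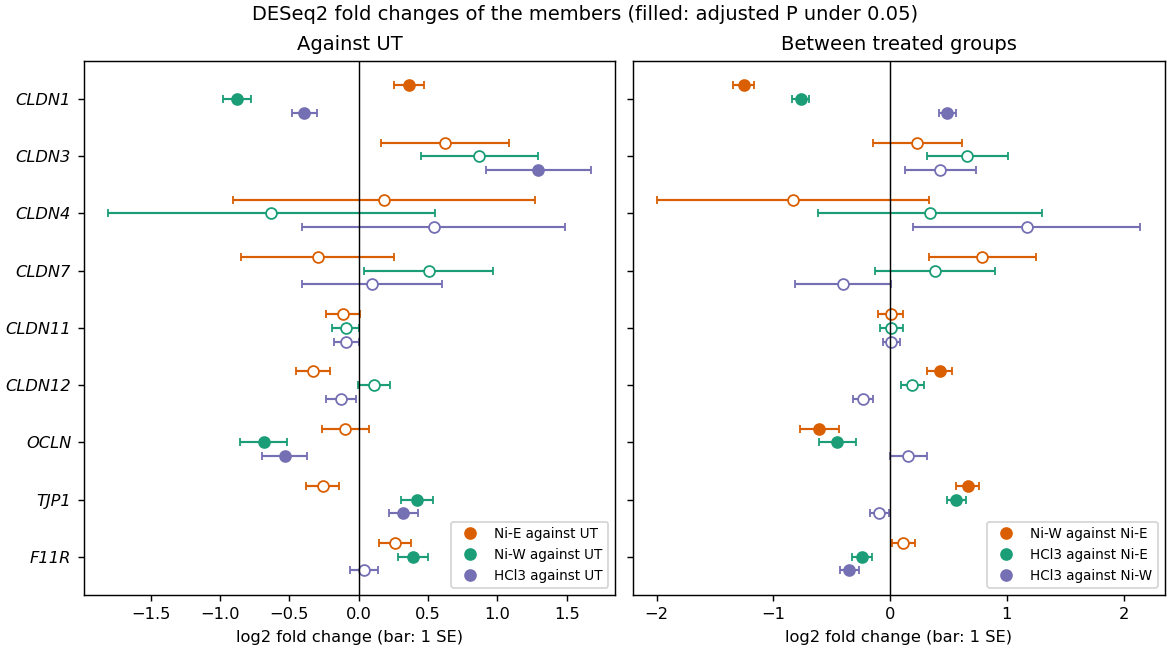
log2 fold change (x axis, bars of 1 SE, DESeq2) of the 9 members (y axis) for the 3 comparisons with UT (left) and the 3 between treated groups (right), with filled points at an adjusted P value under 0.05. CLDN1 passed in all 6 comparisons, above 0 in Ni-E (0.36) and below 0 in Ni-W (-0.88) and HCl3 (-0.39) against UT, while CLDN4, CLDN7 and CLDN11 passed in none.

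Other genes of the junction were followed in 4 lists. Of 16 other claudins, 9 could be tested in Ni-W against UT and 0 passed in DESeq2, with 1 at an unadjusted P value under 0.05, while edgeR passed 2 and limma 1. In HCl3 against UT 10 could be tested and 1 passed, CLDN23 (log2 1.29, DESeq2 adjusted P = 0.000248), named here after its values were seen. Of all genes tested there, 17.6% passed as higher and 14.7% as lower. Of 11 other membrane proteins of the junction, 9 were tested in Ni-W and 3 rose and 0 fell, beside 17.9% higher and 14.0% lower among all genes tested. JAM2, an adhesion molecule related to JAM-A, read 0.55 and 0.63 RPKM in UT, 1.94 and 1.48 RPKM in Ni-W and 1.91 and 2.02 RPKM in HCl3. It rose by log2 1.62 in Ni-W and 1.68 in HCl3 (DESeq2 adjusted P = 3.5e-08 and 8.1e-10). ILDR2, of the angulin family found where 3 cells meet, rose by log2 1.27 during exposure, by 0.70 in Ni-W and by 0.50 in HCl3, the last under 1.5-fold (DESeq2 adjusted P = 1.2e-06, 0.00336 and 0.0428). LSR, of the same list and named here after its values were seen, read 16.1 and 13.9 RPKM in UT. It rose by log2 0.92 during exposure and fell by 0.66 on that scale in HCl3 (DESeq2 adjusted P = 6.7e-10 and 7.8e-06). In Ni-W LSR did not pass (log2 -0.22, adjusted P = 0.228).

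Of 19 scaffold and polarity proteins, 19 were tested in Ni-W, of which 3 rose, 1 fell and 15 did not pass, with a median log2 change of 0.01 beside 0.01 over all genes tested. AMOTL2, an angiomotin-family protein, read 53.4 and 52.1 RPKM in UT and 90.2 and 89.5 RPKM in Ni-W (log2 0.73, DESeq2 adjusted P = 4.2e-13). INADL, which encodes the PALS1-associated scaffold PATJ, rose by log2 1.09 in Ni-W and 1.00 in HCl3 (adjusted P = 1.4e-05 and 5.8e-05). CGNL1, paracingulin, rose by log2 1.13 in Ni-W (adjusted P = 0.0221), from 0.17 and 0.13 RPKM to 0.33 and 0.33 RPKM. In HCl3 CGNL1 did not pass (log2 0.46, DESeq2 adjusted P = 0.487), and AMOTL2 rose by log2 0.39, under 1.5-fold (adjusted P = 6.3e-05). In HCl3 the counts were 2 higher and 3 lower of 19, and in Ni-E 3 higher and 2 lower. In Ni-E against UT the other claudins had 0 passing of 4 tested in DESeq2 (0 also unadjusted and in edgeR), the membrane proteins 2 higher and 0 lower of 7, and the transcription factors 1 higher and 1 lower of 9. In HCl3 the membrane proteins had 3 higher and 2 lower of 8. All these counts stand beside the shares of all genes tested that passed as higher and as lower. Those shares were 17.9% and 14.0% in Ni-W, 17.6% and 14.7% in HCl3, and 6.24% and 5.7% in Ni-E.

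Of 13 transcription factors with a known role at junction genes, 9 were tested in Ni-W, of which 3 rose and 1 fell, beside 17.9% and 14.0% of all genes tested, and in HCl3 5 rose and 2 fell of 9, beside 17.6% and 14.7%. SNAI2, which encodes the repressor SLUG, read 0.32 and 0.26 RPKM in UT, 1.10 and 1.58 RPKM in Ni-W and 1.42 and 1.38 RPKM in HCl3. It rose by log2 2.15 and 2.19 (DESeq2 adjusted P = 1.7e-05 and 2.1e-06). ZEB1, another repressor that binds the E-box marked above, rose by log2 0.72 during exposure, by 0.99 in Ni-W and by 1.08 in HCl3 (DESeq2 adjusted P = 0.019, 8.2e-06 and 2.1e-07). ZEB2, of the same family and named here after its values were seen, read 16.9 and 18.8 RPKM in UT. It was at 12.1 and 12.2 RPKM in Ni-E. ZEB2 fell by 0.62 on the log2 scale during exposure and by 0.31 in HCl3 (DESeq2 adjusted P = 3.6e-06 and 0.0096), the latter under 1.5-fold. In Ni-W it did not pass (log2 -0.22, adjusted P = 0.103). SNAI1 and TWIST1, of the same list, were also named after their values were seen. In HCl3 they rose by log2 1.53 and 0.56, the latter under 1.5-fold (DESeq2 adjusted P = 0.00433 and 0.0307). Neither passed in Ni-W (log2 0.69 and 0.37, DESeq2 adjusted P = 0.382 and 0.22). GRHL1, a grainyhead-family activator of epithelial genes, read 0.90 and 1.02 RPKM in UT and 0.38 and 0.36 RPKM in Ni-W, and fell by 1.42 on the log2 scale (adjusted P = 0.000339). ELF3, an epithelial ETS factor, rose by log2 1.99 in Ni-W and 1.24 in HCl3 (adjusted P = 1.2e-28 and 9.9e-12). Over all 4 lists 46 of 59 genes were tested in Ni-W against UT, 9 rose, 2 fell and 10 were called, beside 17.9%, 14.0% and 16.1% of all genes tested, with a median log2 change of 0.27 against 0.01. That median covers genes with few reads and wide errors, which weigh as much as the others. By list it was 0.58 for other claudins, 0.70 for membrane proteins, 0.01 for scaffold and polarity proteins and 0.69 for transcription factors. Whether any of these factors acts on the members was not tested.

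**Figure D4:**
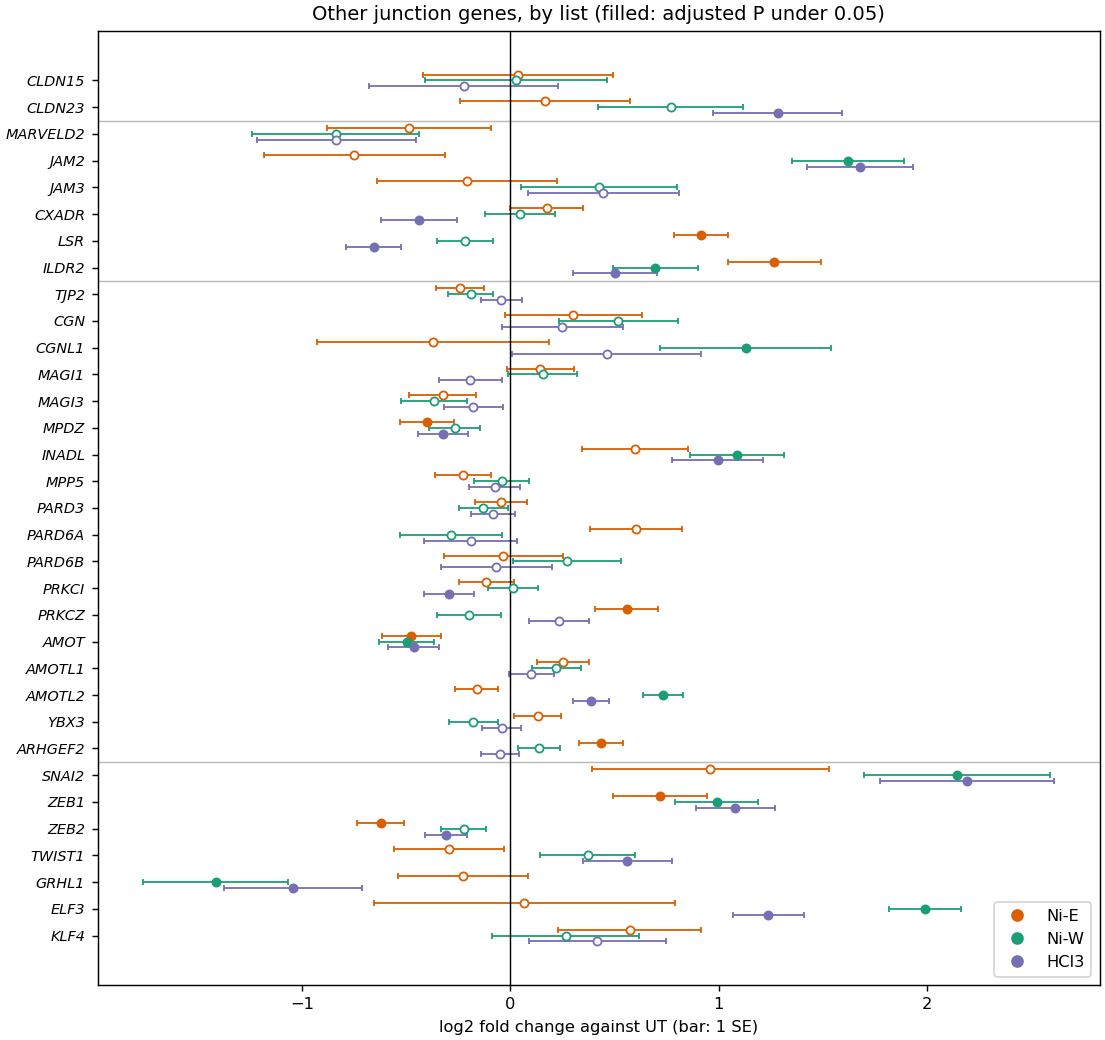
log2 fold change against UT (x axis, bars of 1 SE) of the 33 listed genes with a mean normalised count of at least 50 (y axis, one block per list, from other claudins at the top to transcription factors at the bottom), for Ni-E, Ni-W and HCl3, with filled points at a DESeq2 adjusted P value under 0.05. JAM2 stands at 1.62 in Ni-W and 1.68 in HCl3, SNAI2 at 2.15 and 2.19, and GRHL1 at -1.42 and -1.04.

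Genes whose pattern over the 8 libraries was most like that of a member were ranked by Pearson's r of log2(normalised count + 1) among 12014 genes, as a description, since the 8 libraries fall into 4 groups and the libraries of a group share their source. CLDN1 was most like PIGO (r = 0.996), RBBP9 (0.995) and GPR160 (0.991). OCLN was most like TNFRSF8 and PDCD11 (both 0.996) and USP31 (0.992). CLDN3 was most like CTSZ (0.993), CLDN12 most like PRDM10 (0.992), TJP1 most like CRY1 (0.994) and F11R most like TRAF4 (0.986). CLDN11 reached 0.955 with NAV3. Among the members CLDN1 and OCLN had r = 0.895 and CLDN1 and TJP1 r = -0.921.

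The genes lie on several chromosomes in the hg19 coordinates of the files. CLDN1 is at chr3:190023490-190040235 (minus strand), OCLN at chr5:68800004-68853931 (plus), CLDN3 at chr7:73183327-73184600 (minus), TJP1 at chr15:29992357-30114706 (minus) and F11R at chr1:160965001-160991133 (minus). CLDN11 at chr3:170139028-170152479 is on the same chromosome as CLDN1. Each value counts the exons of all transcripts listed for a gene, so no value can be tied to 1 exon.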

How the data were processed

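RNA-Seq of 8 BEAS-2B libraries was used, in 4 groups of 2. The authors aligned reads to hg19 with STAR 2.4 (per the labels), kept only uniquely placed reads and counted them over RefSeq genes in BioWardrobe, giving whole-number counts. The authors also made the deposited RPKM values in BioWardrobe. No library was pooled, and whether strand was used was not stated. Groups came from the labels, and replicate numbers from the repeat suffix of the titles. The members and gene lists were chosen with earlier results of these data known.

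Each pair of groups was fitted on its 4 libraries with DESeq2 1.42.0 in R 4.3.3 (its default size factors and independent filter, a Wald test on both sides, P values adjusted by Benjamini-Hochberg). Genes were called at an adjusted P value under 0.05 and a change of at least 1.5-fold. P values rest on a spread shared across genes, since permutation of 2 against 2 libraries cannot reach 0.05. Intervals are the log2 fold change ± 1.96 SE, and SE is the fit's. Named were all 9 members, the listed genes called in Ni-W against UT (at most 6 per list, mean normalised count at least 50) and the genes most like each member. CLDN23, LSR, ZEB2, SNAI1 and TWIST1 were named in addition, after their values were seen. Neighbours were genes within 5 Mb with a mean normalised count of at least 50.

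Repeats used edgeR 4.0.16, TMM size factors, limma 3.58.1 (on RPKM values, as log2, with a pseudocount of 1 or 0.1), all 8 libraries, a mean count of at least 10, other fold thresholds, the replicate block, removal of trends with GC content and length, and each replicate left out. Chosen after seeing the data were a crossed block, a mean RPKM of at least 0.5 for limma (the fit without it failed its check on test data), and a recentred GC and length correction, made because the first form moved the median of all genes. GC content came from GENCODE transcripts, with a value for 98.3% of expressed genes and all 9 members. The scripts were tested on simulated data. Totals were 26383920 to 45692298 counts per library. The floor of 3 reads covers counting error only, since reads carried no molecular identifiers. Figures were drawn with matplotlib 3.10.9. Other data of the study were not analysed here.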

Additional observations from a re-analysis of the deposited data

Results flagged for a closer look

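The difference between the washed-out groups, HCl3 less Ni-W, was itself tested and passed for CLDN1 (log2 0.49, DESeq2 adjusted P = 3.5e-09) and F11R (log2 -0.35, DESeq2 adjusted P = 0.000411). CLDN1 read 51.2 RPKM in both HCl3 libraries and 35.4 and 36.8 RPKM in Ni-W, so HCl3 was higher in 2 of 2 libraries. F11R read 16.9 and 17.8 RPKM in HCl3 and 22.6 and 21.1 RPKM in Ni-W, lower in 2 of 2. Less the median of its neighbours the F11R difference was -0.13, and it was not passed without HCl3 replicate 1 (DESeq2 adjusted P = 0.222) or replicate 2 (0.0875). Both groups were grown from single cells, and of these groups the labels number experiments only for HCl3, so clone, experiment and group cannot be told apart.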

How the results depend on the processing

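Members called numbered 0 in Ni-E against UT, 2 in Ni-W against UT, 1 in HCl3 against UT, 3 in Ni-W against Ni-E, 1 in HCl3 against Ni-E and 0 in HCl3 against Ni-W. With no fold threshold these became 1, 4, 4, 4, 4 and 2, and at 2-fold 0 in Ni-W against UT, 1 in Ni-W against Ni-E and 0 in HCl3 against Ni-E. With replicates left out in turn the counts ranged from 0 to 0, 1 to 2, 0 to 1, 1 to 3, 1 to 2 and 0 to 0 in the same order, the low values arising without Ni-W replicate 1 in Ni-W against UT, without UT replicate 2 or either HCl3 replicate in HCl3 against UT, and without Ni-W replicate 2 in Ni-W against Ni-E, and the high value of 2 in HCl3 against Ni-E without HCl3 replicate 2. In Ni-W against UT limma on log2(RPKM + 1) called 1. In HCl3 against Ni-E edgeR, limma on log2(RPKM + 0.1), the GC and length correction and the replicate block with that correction each called 2. The cause of these changes was not tested.

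The deviations of same-suffix libraries had an r of -0.244 to 0.404 over the 6 comparisons, the highest in Ni-W against UT. The labels do not say that a suffix marks a shared batch or day, so the suffixes were not taken to pair the libraries. The replicate block gave 0 members called in HCl3 against UT, also with the recentred GC and length correction, and of 54 member tests 6 no longer passed and 48 kept their side of the threshold; over all genes it called 491 in place of 840 in Ni-E against UT and 466 in place of 716 in HCl3 against Ni-W. The crossed block, added later, called 636, 1883 and 544 genes in Ni-E against UT, HCl3 against UT and HCl3 against Ni-W.

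Of 819 member fold changes under tested alternatives 746 kept their side of the threshold, of which 704 kept direction and 42 changed sign where neither value passed (reported value at most 0.38 in size), 51 no longer passed, 20 newly passed and 2 reversed. The reversed values were F11R in HCl3 against UT with GC and length trends removed, log2 -0.27 (DESeq2 adjusted P = 0.00264), and with the block added, log2 -0.27 (0.0342). That correction moved the median of all genes to -0.184 in this comparison, and recentred it gave F11R log2 -0.06 (DESeq2 adjusted P = 0.577). TJP1 in Ni-W against Ni-E reversed to -0.078 less its neighbours. CLDN11 passed in both washed-out groups only under the correction that moved the median. Of 420 list counts 309 stayed within 1.5 times. With 2 libraries a group, CLDN4 and CLDN7 were limited by depth.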
